A study of Homo sapiens with 6 samples.

Results

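Genes for the cell's responses to double-stranded RNA were followed in the human ovarian cancer line TYK-nu. The members are OAS1, OAS2, OAS3 and OASL of the oligoadenylate synthetase family, EIF2AK2, which encodes the kinase PKR, and ADAR. They were picked by gene symbol, with earlier results of these data known, and are 6 of the 62260 gene rows. RNA was sequenced from 3 libraries of wild-type cells (WT) and 3 of cells in which ZNFX1, a helicase-like antiviral RNA sensor, had been knocked out (ZNFX1 KO). All cells were untreated, and the labels place the 6 libraries in the same batch and call them biological replicates. The labels do not say how many clones were used or how the knockout was made, so the loss of ZNFX1 and any other way in which the KO line departs from WT cannot be told apart. Where the replicates were not separate cultures, p-values measure only the spread between these libraries.

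Long double-stranded RNA is rare in healthy cytoplasm and is common during virus replication. The OAS enzymes bind it and make 2',5'-linked oligoadenylates, second messengers of antiviral defence. PKR binds it and phosphorylates the initiation factor eIF2, which lowers translation. ADAR converts adenosine to inosine in such RNA, which loosens the pairing and keeps the cell's own transcripts from setting off these sensors. Interferon raises transcription of the OAS genes, of EIF2AK2 and of the long ADAR isoform through the factor ISGF3, which includes STAT2 and IRF9 and binds the interferon-stimulated response element (ISRE).

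The promoter letters are shown first, since most members share a known response to interferon. RefSeq promoter windows (GRCh38.p14, 250 bases before to 50 after the start) were at hand for 4 of the 6 members, namely OAS1, OAS3, EIF2AK2 and ADAR, and not for OAS2 and OASL. They were searched on both strands for the ISRE core, written as GAAA and GAAA with 2 further bases (NN) between them, and for the STAT dimer motif TTCNNNGAA. A shorter ISRE form, with 1 base (N) between GAAA and GAAA, was added after the OAS1 window had been seen. The sites found are printed 5' to 3' on the strand of the gene, with the matched core in capitals.
OAS1: cccttctgagGAAACGAAAccaacagcagt
OAS3, distal: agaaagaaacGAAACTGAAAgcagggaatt
OAS3, proximal: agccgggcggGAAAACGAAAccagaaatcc
EIF2AK2: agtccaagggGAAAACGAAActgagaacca
The OAS1 site lies at chr12:112906935-112906964 (plus strand), with its core starting 17 bases before the RefSeq start. The OAS3 sites lie at chr12:112938321-112938350 and chr12:112938452-112938481 (plus strand), with cores starting 143 and 12 bases before the start. The distal core of OAS3 overlaps a match to the shorter form. The EIF2AK2 site lies at chr2:37156967-37156996 (minus strand), and its core starts 6 bases before the start and runs across it. The 3 windows of ADAR held neither ISRE form. The STAT dimer motif was matched in the OAS1 window only. Of all 35116 promoter windows of the same length, 3.57% held the ISRE core, 3.12% held the shorter form and 7.66% held TTCNNNGAA. A match is a description of the letters and not evidence of binding. The position also depends on the start chosen, since GENCODE 29 begins OAS1 at 112906777, upstream of the RefSeq start at 112906962.

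The libraries held between 19115530 and 21036063 fragments on gene rows. Every member passed the filter on low counts. ZNFX1 itself was at 55.6% of its WT mean in the KO, with groups that did not overlap (edgeR quasi-likelihood test, adjusted p = 0.218). WT 2 stood apart in the interferon-stimulated genes described below, so results are also given without it. Of 10 ovarian carcinoma and epithelial markers, 4 were high enough to test. KRT18 was the most abundant of them (38.9 to 88.5 TPM), MUC16 was at 0 in every library, and PAX8 reached at most 0.0445 TPM. Leukocyte markers summed to 0.192 to 1.71 TPM in WT and 1.47 to 4.59 in the KO, mostly from LYZ, with 5 of 9 at 0 in every library, PTPRC among them. Endothelial markers were present in every library and summed to 110 to 211 TPM in WT and 133 to 191 in the KO. The part of these levels in the results below was not tested. In bulk RNA, fewer cells expressing a gene and less RNA per cell cannot be told apart.

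All 6 members had a negative log2 fold change (ZNFX1 KO minus WT), from -0.10 for ADAR to -1.98 for OASL, but the spread between libraries was large. None passed the test over all genes: 0 of 6 had an adjusted p under 0.05 by edgeR's quasi-likelihood test, against 0.727% of all 14166 genes tested. At an unadjusted p under 0.05 there were 2, OAS3 and OASL, against 15.1% of all genes. DESeq2 called 0 of the 6 members, against 4.09% of all genes, and limma called 0 on log2(TPM + 1), against 0.339%, and 0 on log2(TPM + 0.1), against 0.466%. The median log2 fold change was -0.88, beside -0.01 over all genes tested. Without WT 2 the median was -0.31 and 4 of the 6 values were negative. The unit CPM is a fragment count scaled to library size and is close to what the test compares, while TPM is also divided by gene length and serves to compare genes.

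**Figure D1:**
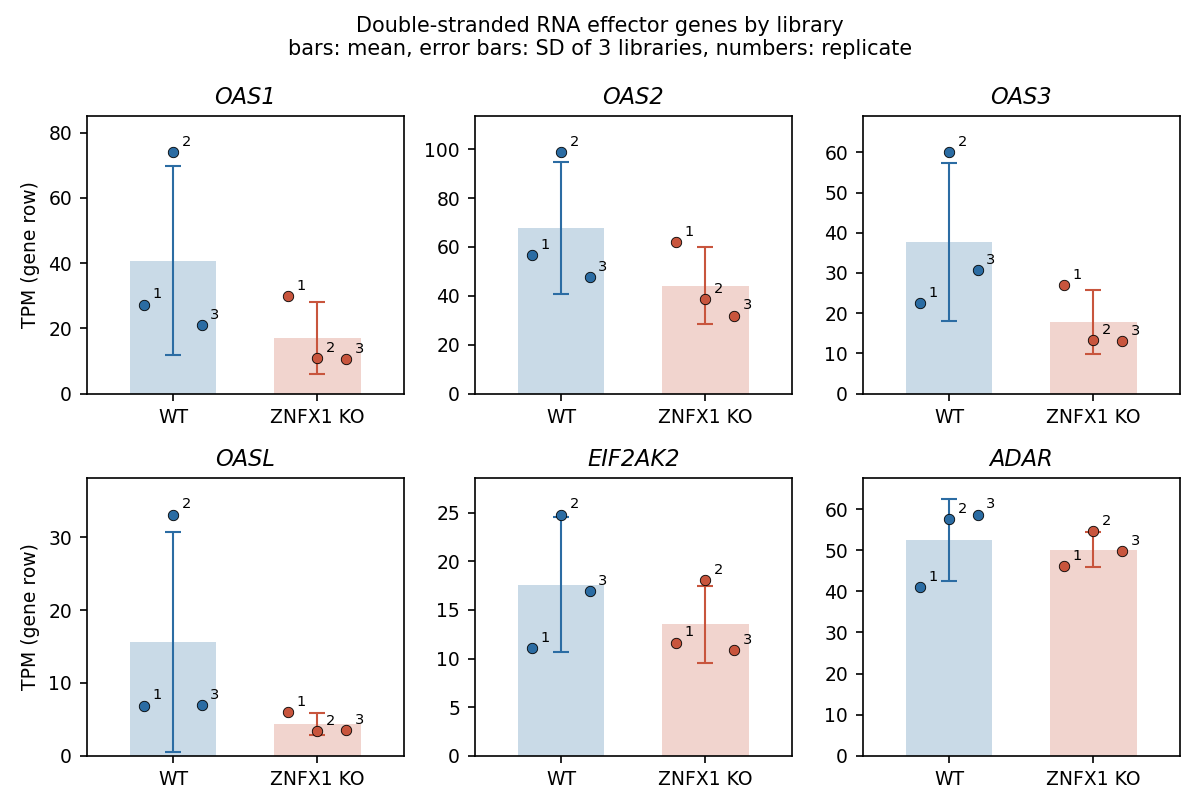
TPM of the 6 members in each library (vertical axes, starting at 0 and differing between panels), with points numbered by replicate, bars for the group mean and error bars for the SD of 3 libraries. WT 2 is the highest point for every gene except ADAR, and ZNFX1 KO 1 lies within the range of the WT libraries for every gene except OASL.

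The first OAS gene, OAS1, encodes the smallest synthetase, with a single catalytic unit. OAS1 (ENSG00000089127.15, chromosome 12, 112906777 to 112933222, plus strand, GRCh38) was at 27.3, 74.0 and 20.9 TPM in WT 1, 2 and 3 and at 29.95, 10.9 and 10.6 TPM in ZNFX1 KO 1, 2 and 3. ZNFX1 KO 2 and 3 were below every WT library, while ZNFX1 KO 1 was above WT 1 and WT 3, so the groups overlapped. The means were 40.7 ± 28.95 TPM in WT and 17.1 ± 11.1 TPM in the KO (SD, n = 3 each). The log2 fold change was -1.29 (adjusted p = 0.379 by edgeR, SE 0.64). It was -0.44 without WT 2 and -2.17 without ZNFX1 KO 1 (adjusted p = 0.199 by edgeR, SE 0.61).

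OAS2 encodes the synthetase with a pair of OAS units, of which the second is catalytic. OAS2 (ENSG00000111335.14, chromosome 12, 112978395 to 113011723, plus strand) was at 56.7, 98.7 and 47.8 TPM in WT 1, 2 and 3 and at 62.1, 38.5 and 31.9 TPM in ZNFX1 KO 1, 2 and 3. As with OAS1, the first KO library stood among the WT libraries and the other two stood below them. The log2 fold change was -0.65 (adjusted p = 0.477 by edgeR, SE 0.41), and -0.19 without WT 2 against -1.09 without ZNFX1 KO 1.

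The largest synthetase, which binds long double-stranded RNA, is the product of OAS3 (ENSG00000111331.14, chromosome 12, 112938352 to 112973249, plus strand). It was at 22.5, 60.0 and 30.6 TPM in WT 1, 2 and 3 and at 26.9, 13.2 and 13.0 TPM in ZNFX1 KO 1, 2 and 3. In TPM, ZNFX1 KO 1 lay between WT 1 and WT 3. In CPM it was above both, at 282.6 against 242.5 in WT 1 and 250.2 in WT 3. The log2 fold change was -1.11 (adjusted p = 0.315 by edgeR, SE 0.46), -0.49 without WT 2 and -1.63 without ZNFX1 KO 1. In ZNFX1 KO 1 the TPM of OAS1 was 2.79 times, that of OAS2 1.76 times and that of OAS3 2.06 times the mean of the other KO libraries. These 3 genes lie next to each other on chromosome 12, in the order OAS1, OAS3, OAS2, on the same strand and 5129 and 5145 bases apart, with no other protein-coding gene between them.

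OASL had the most negative log2 fold change of the family. Its protein is like an OAS enzyme with ubiquitin-like domains, but in humans it makes no oligoadenylate and is known to enhance RIG-I signalling. OASL (ENSG00000135114.14, chromosome 12, 121019111 to 121039242, minus strand) lies 8007387 bases beyond OAS2. It was at 6.86, 33.1 and 6.93 TPM in WT 1, 2 and 3 and at 6.02, 3.34 and 3.56 TPM in ZNFX1 KO 1, 2 and 3. On the TPM scale every KO library was below every WT library (exact two-sided permutation test, p = 0.1, the smallest that 3 against 3 libraries allow). On the CPM scale the groups overlapped, with 15.9 CPM in ZNFX1 KO 1 and 15.1 CPM in WT 3. No other member had groups apart in TPM, and the share of all genes apart in TPM was not counted. In CPM 0 members were lower in every KO library, against 10.8% of all genes tested. The log2 fold change of OASL was -1.98 (adjusted p = 0.240 by edgeR, SE 0.67). WT 2 held 4.80 times the mean TPM of the other WT libraries, and without it the log2 fold change was -0.69 (adjusted p = 0.621 by edgeR, SE 0.33). OASL passed the threshold without WT 3 (log2 fold change -2.36, edgeR adjusted p = 0.0465), where 9.02% of all genes tested were called, and with no filter on low counts (adjusted p = 0.0138), where 2.11% were.

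**Figure D2:**
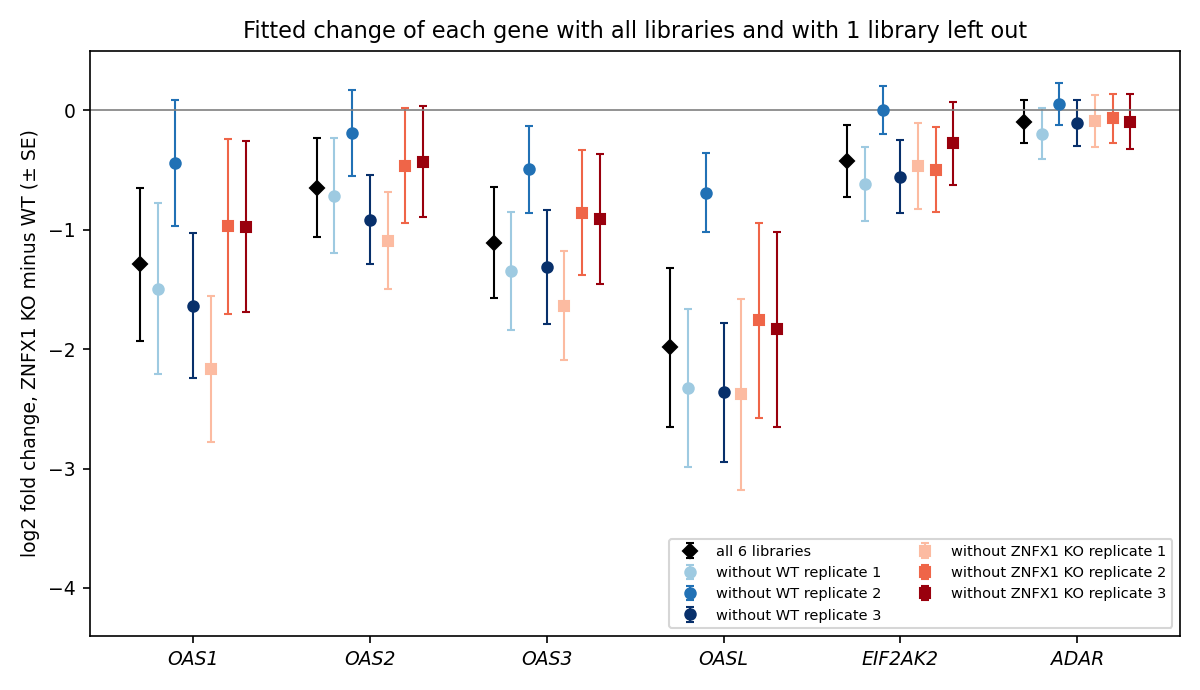
Fitted log2 fold change (ZNFX1 KO minus WT, vertical axis, ± SE) of each member with all 6 libraries (black) and with 1 library left out (blue circles, WT; red squares, KO). Leaving out WT 2 brings every gene nearest to 0 or past it, and leaving out ZNFX1 KO 1 gives the most negative value for OAS1, OAS2, OAS3 and OASL.

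Summed over the 4 OAS family genes, transcripts were at 113, 266 and 106 TPM in WT 1, 2 and 3 and at 125, 66.0 and 59.0 TPM in ZNFX1 KO 1, 2 and 3. The sum in ZNFX1 KO 1 was therefore above that of WT 1 and WT 3, and the groups overlapped (exact two-sided permutation test, p = 0.3). OAS2 made up the largest share of this sum in every library, between 37.1% in WT 2 and 58.4% in ZNFX1 KO 2. OASL made up 6.06%, 12.5% and 6.52% in WT and 4.82%, 5.07% and 6.03% in the KO, so that its share was lower in every KO library (exact two-sided permutation test, p = 0.1). Among partner genes of these enzymes, ABCE1, a ribosome recycling factor, was at 26.7 ± 16.9 TPM in WT and 34.7 ± 10.7 TPM in the KO (SD, n = 3 each), with WT 2 lowest at 13.8 TPM. PDE12, which degrades the oligoadenylates, was at 6.43 ± 2.16 and 6.78 ± 0.800 TPM. Neither passed the test (log2 fold change 0.40 with an SE of 0.33 for ABCE1 and 0.17 with an SE of 0.21 for PDE12).

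The gene of PKR, the kinase arm, had a log2 fold change nearer to 0. EIF2AK2 (ENSG00000055332.19, chromosome 2, 37099210 to 37157065, minus strand) was at 11.1, 24.8 and 17.0 TPM in WT 1, 2 and 3 and at 11.6, 18.1 and 10.9 TPM in ZNFX1 KO 1, 2 and 3. WT 2 was highest, ZNFX1 KO 2 came second, and the groups overlapped widely. Unlike for the OAS genes, ZNFX1 KO 1 was not the highest KO library, and its TPM was 0.803 times the mean of the others. On the CPM scale it was not low but close to the highest, with 167.0 against 176.9 for replicate 2 and 128.6 for replicate 3. The log2 fold change was -0.42 (adjusted p = 0.517 by edgeR, SE 0.30), and without WT 2 it was 0.0068 (SE 0.20). GPATCH11, on the opposite strand, overlaps its 3' end from 37099210 to 37099244 only. Over its whole length GPATCH11 held 435 to 921 fragments per library. Whether the counting used strand is not given in the sources used here.

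Genes that act on or below PKR were near 0 as lists. Of 7 activators and inhibitors 0 were called, with a median log2 fold change of -0.03. The most abundant were THAP12, an inhibitor of a PKR inhibitor, at -0.09 (SE 0.18), PRKRA, the PKR activator PACT, at -0.20 (SE 0.19), and NCK1, an adaptor, at 0.00 (SE 0.18). Of 17 genes for eIF2, its exchange factor eIF2B, the other eIF2 kinases and the phosphatase that reverses them, 0 were called (median -0.01). ATF4, whose translation rises when eIF2 is phosphorylated, was at 198 ± 12.9 TPM in WT and 202 ± 17.1 TPM in the KO (SD, n = 3 each). EIF2S2 and PPP1CA were at -0.04 (SE 0.17) and -0.01 (SE 0.18).

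In 5 of these 17 genes every KO library was higher in CPM than every WT library, against 9.39% of all genes tested, and in 1 every KO library was lower, against 10.8%. Those higher were EIF2S3, the gamma subunit of eIF2, at 0.44 (adjusted p = 0.270 by edgeR, SE 0.16), EIF2B4 at 0.14 (SE 0.15), and the kinases EIF2AK1 (HRI) at 0.22 (SE 0.16) and EIF2AK4 (GCN2) at 0.34 (SE 0.16). The fifth was PPP1R15B, the constitutive phosphatase partner, at 0.26 (SE 0.16). EIF2B1, a regulatory subunit of eIF2B, was the lower one, at -0.30 (SE 0.16). None of these 6 passed the test. On the TPM scale the groups stayed apart for EIF2S3 only, and those of the other genes named here overlapped.

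ADAR showed the smallest difference of the members. ADAR (ENSG00000160710.18, chromosome 1, 154582057 to 154628013, minus strand) was at 41.1, 57.7 and 58.7 TPM in WT 1, 2 and 3 and at 46.1, 54.7 and 49.8 TPM in ZNFX1 KO 1, 2 and 3. All 3 KO libraries lay inside the WT range, and the highest library was only 1.43 times the lowest, against 9.90 times for OASL. The means were 52.5 ± 9.88 TPM in WT and 50.2 ± 4.33 TPM in the KO (SD, n = 3 each). The log2 fold change was -0.10 (adjusted p = 0.825 by edgeR, SE 0.18), and it was 0.054 without WT 2. The gene row does not separate the interferon-inducible long isoform from the constitutive short isoform, so a change in their ratio was not measured.

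Other deaminases and proteins with double-stranded RNA-binding domains had mostly positive values. Of 21 listed, 17 were tested, 0 were called, 12 had a positive log2 fold change, and the median was 0.22. In 5 of the 17 every KO library was higher in CPM than every WT library, against 9.39% of all genes, among them ADARB1, ILF2, DROSHA and STAU1. ADARB1, the second editing enzyme, was at 2.17, 2.37 and 2.70 TPM in WT and 2.67, 3.73 and 4.10 TPM in the KO (log2 fold change 0.50 with an SE of 0.19, adjusted p = 0.285 by edgeR). ILF2, a subunit of a complex that binds double-stranded RNA, was at 0.48 (SE 0.23). DROSHA, the nuclease that starts miRNA processing, was at 0.34 (SE 0.17), and STAU1, which binds paired mRNA, at 0.22 (SE 0.16). On the TPM scale the groups of ADARB1, ILF2, DROSHA and STAU1 overlapped.

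The helicase DHX9, which unwinds paired Alu RNA, had the largest value of that list at 0.87 (adjusted p = 0.368 by edgeR, SE 0.42), with overlapping groups. It was at 19.0, 15.8 and 68.0 TPM in WT 1, 2 and 3 and at 47.7, 71.1 and 60.8 TPM in ZNFX1 KO 1, 2 and 3. WT 1 and WT 2 were low, and WT 3 was as high as the KO libraries. ADAD1 was at 0 in every library. ZBP1, the sensor of Z-form RNA that ADAR holds in check, was read at no more than 0.0192 TPM and was not tested.

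**Figure D3:**
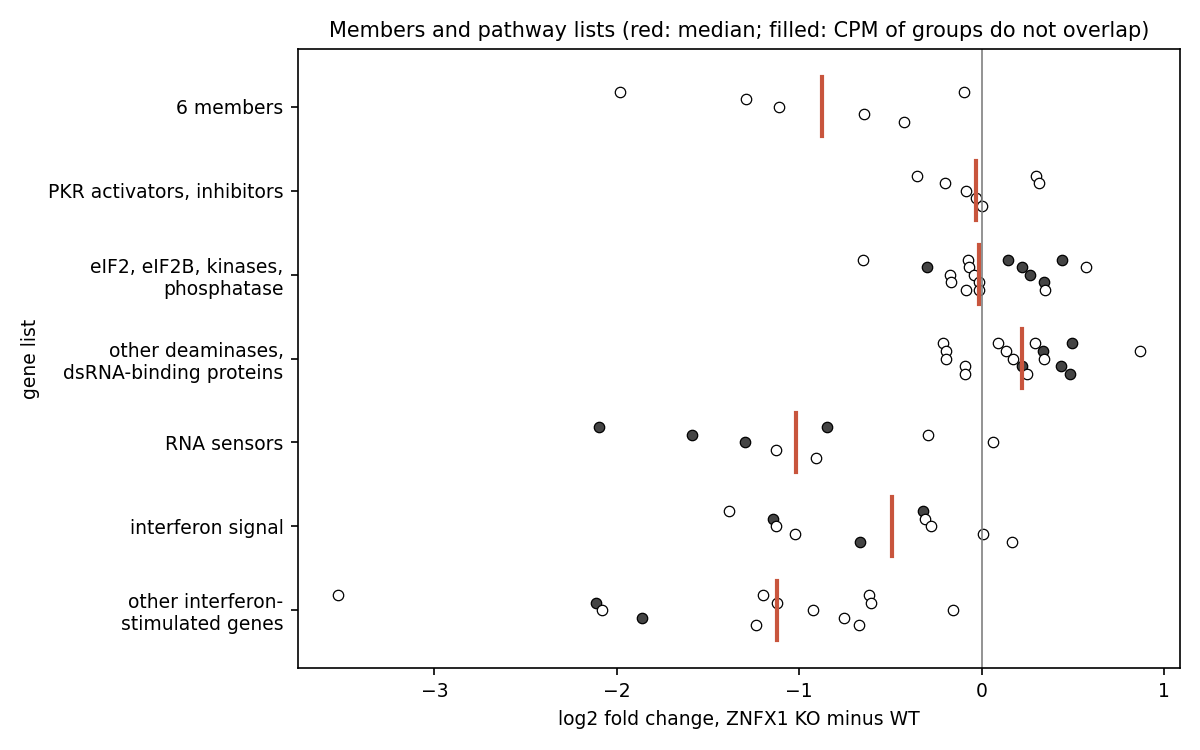
Log2 fold change (ZNFX1 KO minus WT, horizontal axis) of each tested gene (circles) in the 6 members and 6 pathway lists, with the list median as a red line and filled circles where the CPM of the groups did not overlap. Members, RNA sensors and other interferon-stimulated genes lie mostly below 0 (medians -0.88, -1.02 and -1.12), and the PKR lists lie around 0.

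On the scale of TPM, the members were ordered in WT as OAS2, ADAR, OAS1, OAS3, EIF2AK2 and OASL, and in the KO as ADAR, OAS2, OAS3, OAS1, EIF2AK2 and OASL. None of the neighbours in the WT order was separated beyond the range of its libraries, though OAS3 was above EIF2AK2 in 3 of 3 WT libraries. In the KO, OAS2 was above OAS3 and EIF2AK2 above OASL in 3 of 3 libraries without overlap, and the other neighbours overlapped. OAS2 exceeded ADAR in WT 1, WT 2 and ZNFX1 KO 1, and ADAR exceeded OAS2 in the other libraries. The ratio of OAS1 to ADAR was 0.664, 1.28 and 0.357 in WT 1, 2 and 3 and 0.650, 0.199 and 0.213 in ZNFX1 KO 1, 2 and 3. Relative to ADAR, OAS1 was thus lowest in ZNFX1 KO 2 and 3, and ZNFX1 KO 1 was close to WT 1 (exact two-sided permutation test, p = 0.2).

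The changes of the members were also compared with each other, as the log2 ratio of TPM within each library, over 15 pairs. The most different pair was OASL and ADAR, whose log2 ratio was -2.16 in WT and -3.59 in the KO on average, a difference of -1.44 (exact two-sided permutation test, p = 0.2, adjusted over the pairs 0.45). Only for OAS2 and OASL did the ratio not overlap between the groups, with means of 2.47 in WT and 3.35 in the KO (exact permutation p = 0.1, adjusted 0.45). With 3 against 3 libraries this exact test cannot give a p below 0.1, so it cannot pass a threshold of 0.05 for any pair.

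The receptors that sense the same RNA, with their adaptors, had a median log2 fold change of -1.02, with 7 of 8 values negative and 0 of 8 called by edgeR. In 4 of the 8 every KO library was below every WT library in CPM, against 10.8% of all genes. These were IFIH1, TLR3, DDX60 and ZNFX1, the targeted gene, which also counts in the 7 negative values and the median. IFIH1, the sensor MDA5 of long double-stranded RNA, was at 7.11, 26.3 and 4.98 TPM in WT 1, 2 and 3 and at 2.998, 3.79 and 3.39 TPM in ZNFX1 KO 1, 2 and 3. In contrast to OAS1, it was as low in ZNFX1 KO 1 as in the other KO libraries (log2 fold change -2.10 with an SE of 0.62, adjusted p = 0.190 by edgeR). TLR3, the endosomal sensor, was at -1.30 (adjusted p = 0.168 by edgeR, SE 0.36) and DDX60, a helicase of antiviral sensing, at -1.59 (adjusted p = 0.162 by edgeR, SE 0.43). MAVS, the mitochondrial adaptor, was at 0.06 (SE 0.21). The list median was -0.36 without WT 2.

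The signalling genes upstream of the members, from the interferon receptor to ISGF3, had a median of -0.49, and of -0.24 without WT 2, with 0 of 10 called. In 3 of the 10, among them STAT2 and TYK2, every KO library was below every WT library in CPM, against 10.8% of all genes. STAT2 was at -0.67 (adjusted p = 0.219 by edgeR, SE 0.21), and the receptor kinase TYK2 at -0.32 (SE 0.18). IRF9, at 19.6, 34.6 and 10.97 TPM in WT and 11.03, 10.9 and 9.59 TPM in the KO, overlapped between the groups in CPM. JAK1, the other receptor kinase, was at 0.17 (SE 0.24).

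Interferon transcripts were hardly read. Over the 9 ligand genes looked at, 35 fragments were assigned in all 6 libraries together, and none was tested. IFNB1 had 3, 1 and 0 fragments in WT and 1, 1 and 2 in the KO, and IFNE, the epithelial type I interferon, had 1 to 8 per library. IFNK, IFNL2, IFNA1 and IFNA2 had 0 in every library, which allows up to 3 counts, or 0.143 to 0.157 CPM, counting error only. WT 2, where 5 of the 6 members were highest in TPM, had 1 fragment of IFNB1 and 8 of IFNE. Among other interferon-stimulated genes, 13 of 16 were tested, 0 were called and all 13 had a negative value (median -1.12), but only 7 of 13 without WT 2 (median -0.18). ISG15, a ubiquitin-like modifier, was at 105, 467 and 123 TPM in WT and 96.3, 43.8 and 58.0 TPM in the KO, and IFI6, a protein of the endoplasmic reticulum, was at 82.0, 365 and 105 and at 66.7, 30.6 and 34.4 TPM. For both, every KO library was below every WT library, with ZNFX1 KO 1 the highest of the KO libraries. In CPM the groups stood apart in this way in only 2 of the 13 genes tested, against 10.8% of all genes. USP18, which removes ISG15, overlapped between the groups (-0.67, SE 0.64).

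Over all pathway genes together, 0 of 75 tested passed by edgeR's quasi-likelihood test, against 0.727% of all genes. DESeq2 called 3 of them, a share near the 4.09% of all genes. At an unadjusted p under 0.05 by edgeR there were 16, against 15.1% of all genes. Of these 16, 14 were lower in the KO, ZNFX1 itself among them, and 2 were higher. Over all genes 1302 were lower and 839 higher at this threshold. The CPM of the groups did not overlap for 10 lower and 10 higher genes of the 75, against 10.8% and 9.39% of all genes.

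**Figure D4:**
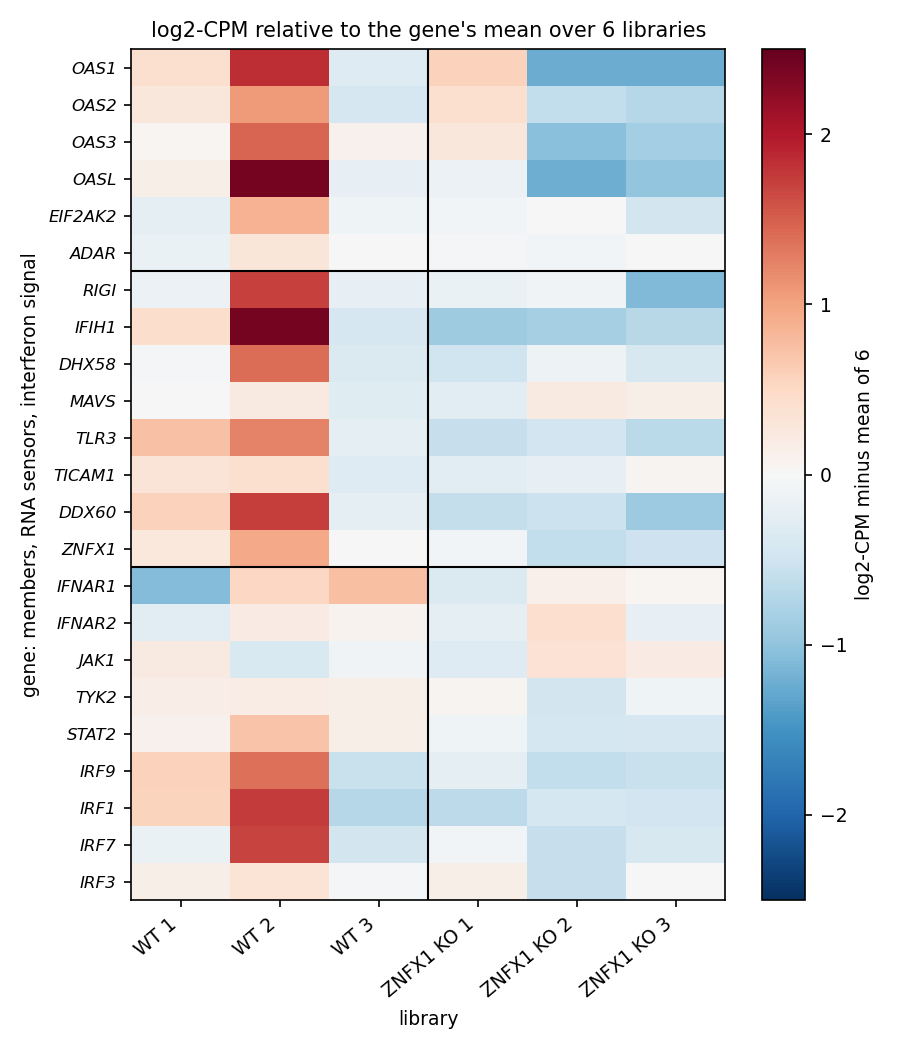
Log2-CPM of each gene (rows) minus its mean over the 6 libraries, by library (columns), for the members, RNA sensors with their adaptors and interferon signalling genes. WT 2 is above 0 in every row but JAK1 (-0.37), and among the members it runs from 0.31 for ADAR to 2.40 for OASL, while ZNFX1 KO 1 is above 0 for OAS1, OAS2 and OAS3 (0.57, 0.40 and 0.28) but below 0 for IFIH1 (-0.89).

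The genes most like each member were taken as the 3 with the highest Pearson correlation of log2-CPM over the 6 libraries, among 10607 other genes. With so few libraries, and with WT 2 setting much of the range, high values arise easily, and they are given as a description. For OASL the closest were ISG15 (r = 0.99), USF2 (r = 0.99) and CMTR1 (r = 0.99), an interferon-stimulated mRNA cap methyltransferase. For OAS1 they were RFFL, CBFA2T2 and RMC1 (r = 0.99, 0.98 and 0.98), and for OAS2 RMC1, RFFL and ZNF514 (r = 0.99, 0.98 and 0.98). OAS3 was closest to ZNF589, EPHB2 and LRRC1 (r = 0.99 each). EIF2AK2 was closest to JAZF1 (r = 0.995), the pseudogene SDAD1P1 (r = 0.99) and RIGI (r = 0.98), the sensor of short double-stranded RNA. ADAR was closest to BRPF3 (r = 0.98), KCTD7 (r = 0.96) and ZBTB40 (r = 0.96). Among the members themselves, OAS1 and OAS2 were most alike (r = 0.99), and OAS2 and ADAR least (r = 0.55).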

How the data were processed

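RNA was measured in 6 TYK-nu libraries, prepared with a stranded kit for total RNA according to the labels. The titles gave each library its genotype and replicate number. The files the authors deposited hold an estimated count of fragments, a TPM value and an effective length for each row, quantified by Salmon, per the labels. The submitters' processing notes also name FastQC, Trimmomatic and DESeq2. No build or annotation release is stated in the sources at hand. Each file has 62260 gene rows, all named by a gene table, and 134909 transcript rows that stand outside them. The transcript rows hold 9.93% to 10.7% of the fragments and did not enter the main test. Joining 103521 of them to genes by GENCODE 29 (GRCh38), which also gave the gene coordinates, was tried. Every column of sample values mapped to a library, and 0 were left aside.

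Each estimated count was rounded. The 14166 genes kept by edgeR's filterByExpr were scaled by TMM and tested with edgeR 4.0.16 (glmQLFit and glmQLFTest, two-sided, genotype as the only term, R 4.3.3). P-values were adjusted by Benjamini-Hochberg over all of them, with a threshold of 0.05. An SE is the fitted log2 fold change over the root of the F statistic. The correlations used log2-CPM with a prior count of 2. Single values were compared by exact permutation tests, and the fit was tested on simulated data. All pairs of libraries differed beyond sampling noise, with a chi-square of at least 30.4 for each degree of freedom.

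Alternatives tried were no filter, library totals, DESeq2 size factors, 1 CPM in 3 libraries, DESeq2 1.42.0, an effective length offset, limma 3.58.1 on log2(TPM + 1) and log2(TPM + 0.1), joined transcript rows, a replicate block and leaving out each library. The members and lists were chosen with earlier results of these data known. Named genes were the members, ZNFX1, from each list the called genes, the 3 with the highest mean TPM and those whose groups did not overlap in CPM, and the 3 genes most correlated with each member. PAX8, MUC16, KRT18, PTPRC, LYZ, DHX9, IRF9, ADAD1, ZBP1, GPATCH11 and some of the interferon ligands were named after their values were seen. Some genes that this rule names are not reported here. Promoter windows are RefSeq's.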

Additional observations from a re-analysis of the deposited data

How the results depend on the processing

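OAS1, OAS2, OAS3 and OASL kept a negative log2 fold change in all 16 alternatives. EIF2AK2 and ADAR kept it in 15 each and turned positive without WT 2 (0.0068 and 0.054); the cause was not tested. With 1 library left out at a time, the log2 fold change ran from -2.17 to -0.44 for OAS1, -1.09 to -0.19 for OAS2, -1.63 to -0.49 for OAS3, -2.38 to -0.69 for OASL, -0.62 to 0.0068 for EIF2AK2, -0.19 to 0.054 for ADAR and -1.03 to -0.53 for ZNFX1. OASL was called with no filter (-1.94, edgeR adjusted p = 0.0138) and without WT 3, where ZNFX1 was called too (edgeR adjusted p = 0.0468), and its adjusted p ran from 0.0138 to 0.621 over the alternatives. The number of members called was 1 with no filter and 0 to 1 with a library left out. The number of genes called (103) became 602 with no filter, 579 with DESeq2, 48 and 66 with limma on log2(TPM + 1) and log2(TPM + 0.1), 187 with joined transcript rows, and 2 (without ZNFX1 KO 2) to 1315 (without WT 3) with a library left out. Of the pathway genes 10 of 85 tested were called with no filter, against 2.11% of all genes. DESeq2 called 3 of 75, against 4.09%. With a library left out 0 to 13 were called, the 13 among 76 tested without WT 3, against 9.02% of all genes. The replicate numbers did not pair the libraries: deviations of same-numbered WT and KO libraries correlated at 0.13, -0.04 and 0.01. With the replicate number as a block 14 genes were called and 0 members. The members had at least 148 fragments in each library, and whether more depth or more libraries would change the calls was not tested.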

Other observations

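Part of the reads of some members stood in transcript rows outside the gene row. Over the 6 libraries this share was 16.4% for EIF2AK2, 6.07% for OAS2, 4.64% for ADAR and 1.95% for OAS3, and 0% for OAS1 and OASL. For EIF2AK2 most of it was 1 transcript that GENCODE 29 marks for nonsense-mediated decay, ENST00000647926.1, with 427, 997 and 614 fragments in WT 1, 2 and 3 and 540, 529 and 397 in ZNFX1 KO 1, 2 and 3. WT 2 was highest here as in the gene row. A coding transcript of OAS2, ENST00000620097.2, had 313, 1075 and 257 fragments in WT and 236, 0 and 231 in the KO, so that it was assigned no fragment in ZNFX1 KO 2. Another OAS2 transcript, ENST00000551603.2, had 0, 169 and 124 in WT and 0, 181 and 0 in the KO. Whether fragments were assigned to one of these transcripts in place of the other was not tested.

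The effective length that Salmon gives a gene row depends on which of its transcripts the reads were assigned to. That of OASL was 1644, 1641 and 1640 bases in WT 1, 2 and 3 and 1565, 1620 and 1569 bases in ZNFX1 KO 1, 2 and 3, so that every KO library was shorter than every WT library (exact two-sided permutation test, p = 0.1, the smallest possible). That of OAS1 ranged from 1662 bases in ZNFX1 KO 3 to 1921 in ZNFX1 KO 1, and that of EIF2AK2 from 7108 in ZNFX1 KO 2 to 8536 in ZNFX1 KO 1, with overlapping groups for both. Those of OAS2, OAS3 and ADAR overlapped between the groups as well. How many of all gene rows have groups apart in effective length was not counted, so OASL cannot be read against that share. Which transcripts made up these lengths was not analysed here.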
